A study of Homo sapiens with 8 samples.

Results

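Pericentromeric promoter windows are the gene starts that lie nearest to the centromeres. They were taken by position from the authors' 38157 promoter windows, in the hg19 build, on chromosomes 1, 2, 5, 7, 9, 10, 16, 17, 20, 21 and 22. All windows within a fixed range of each chromosome, around or beside its centromere, were kept, other than those named for a ZNF or ZFP zinc finger gene, of which 45 were left out. This gave 1240 windows with 905 distinct names. The rule uses positions and names, not read counts. Each window runs from 2000 bases before to 100 bases after a start position, and 79 of the 1240 are wider than 2100 bases. The windows are not independent, since 162 overlap another member and many share a gene.

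The windows come from a study of SiHa cells, an established human cervical carcinoma line of squamous origin. Cells were seeded on a porous transwell membrane, and after 10 h the cells that had crossed it (migrated) and those that had not (non-migrated) were scraped off separately. Chromatin of each fraction was sequenced as input, without antibody, and after immunoprecipitation with an antibody to H3K9me3, which is histone H3 trimethylated at lysine 9. The 4 groups (non-migrated input, non-migrated H3K9me3, migrated input, migrated H3K9me3) hold 2 libraries each, 1 per replicate set. All groups share 1 cell line and received no drug or genetic change. The sets are separate biological replicates made with different library kits, and duplicate reads were removed from set 1 per the labels' protocols. The promoter windows of a library held 88028 to 684949 reads in set 1 and 984835 to 1729061 in set 2. The log2 levels per window, averaged over the sets, nevertheless give both sets the same weight. Set 1 therefore counts in full in these levels, although its H3K9me3 libraries held a median of 1 (migrated) and 3 (non-migrated) reads per window. The change between fractions is different. It was fitted as 1 value for both sets, with weights that favour deeper libraries, so set 2 counts more in it.

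Centromeres are built on long arrays of satellite repeats, and the flanking pericentromeric DNA is rich in further satellites and in recently duplicated segments. In most mammalian cells this DNA is packed as constitutive heterochromatin, in which SUV39H1 and SUV39H2 write H3K9me3 and HP1 proteins bind it. Genes are sparse there, and many of them belong to families that spread by segmental duplication in primates, such as POTE, while ordinary housekeeping genes also lie within a few Mb of some centromeres. The question asked here is how much of the mark the promoters in these ranges carried, how this differed between chromosomes and with the distance from the centromere, and whether it differed between the fractions.

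Promoter sequences are shown for the members of highest and lowest H3K9me3 over input among those that could be tied to a RefSeq start and that held a mean of at least 20 reads per library, so that the marked and the unmarked promoters can be read side by side. Each is the 250 bases upstream of the RefSeq start in GRCh38.p14, which is not the build of the windows, printed 5′ to 3′ on the gene's strand with every CG dinucleotide in capitals. The 5 highest are GGTLC1, a light chain member of the gamma-glutamyltransferase family (chr20:23988780-23989029, minus strand), TEKT4, a tektin of sperm flagella (chr2:94871180-94871429, plus strand), CCT8L2, a chaperonin-like gene (chr22:16592811-16593060, minus strand), SUN5, which joins the sperm head to its tail (chr20:33004434-33004683, minus strand), and CST11, an epididymal cystatin (chr20:23452877-23453126, minus strand).
GGTLC1: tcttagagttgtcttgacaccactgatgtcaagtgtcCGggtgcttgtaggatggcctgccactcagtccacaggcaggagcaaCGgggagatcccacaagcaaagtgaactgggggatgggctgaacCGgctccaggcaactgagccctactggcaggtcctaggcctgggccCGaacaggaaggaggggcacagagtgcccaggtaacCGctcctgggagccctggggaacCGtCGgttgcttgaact
TEKT4: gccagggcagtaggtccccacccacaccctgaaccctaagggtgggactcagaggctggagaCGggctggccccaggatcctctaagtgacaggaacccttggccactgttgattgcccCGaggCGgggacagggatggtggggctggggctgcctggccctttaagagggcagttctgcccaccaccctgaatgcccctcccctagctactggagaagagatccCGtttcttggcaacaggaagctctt
CCT8L2: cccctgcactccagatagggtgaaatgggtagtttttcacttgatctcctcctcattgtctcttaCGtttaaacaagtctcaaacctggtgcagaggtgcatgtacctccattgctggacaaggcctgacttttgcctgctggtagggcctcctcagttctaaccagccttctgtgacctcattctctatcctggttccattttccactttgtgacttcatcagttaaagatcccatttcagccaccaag
SUN5: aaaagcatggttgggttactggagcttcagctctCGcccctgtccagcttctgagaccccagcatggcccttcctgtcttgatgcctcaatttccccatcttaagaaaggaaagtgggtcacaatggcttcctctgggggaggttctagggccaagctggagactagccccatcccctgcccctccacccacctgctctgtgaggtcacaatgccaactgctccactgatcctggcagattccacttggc
CST11: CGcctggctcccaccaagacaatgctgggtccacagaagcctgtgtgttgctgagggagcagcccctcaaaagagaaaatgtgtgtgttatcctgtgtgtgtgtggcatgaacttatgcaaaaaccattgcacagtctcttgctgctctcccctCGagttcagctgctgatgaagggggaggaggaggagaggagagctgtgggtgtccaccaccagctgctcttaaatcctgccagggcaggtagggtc
The 3 lowest are IFT20, a carrier of intraflagellar transport (chr17:28335473-28335722, minus strand), TLCD1, a membrane protein with a TLC domain (chr17:28726933-28727182, minus strand), and VPS35, a subunit of the retromer that recycles endosomal cargo (chr16:46689179-46689428, minus strand).
IFT20: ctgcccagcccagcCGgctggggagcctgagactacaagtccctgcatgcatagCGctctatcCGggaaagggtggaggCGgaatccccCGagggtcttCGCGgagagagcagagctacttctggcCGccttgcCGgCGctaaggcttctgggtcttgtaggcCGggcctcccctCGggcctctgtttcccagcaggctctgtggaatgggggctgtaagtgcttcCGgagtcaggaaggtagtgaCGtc
TLCD1: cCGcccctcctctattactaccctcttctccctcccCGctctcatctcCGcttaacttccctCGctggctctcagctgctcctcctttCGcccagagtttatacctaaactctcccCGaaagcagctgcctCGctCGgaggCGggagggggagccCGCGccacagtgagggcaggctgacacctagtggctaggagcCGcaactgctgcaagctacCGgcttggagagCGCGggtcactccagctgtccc
VPS35: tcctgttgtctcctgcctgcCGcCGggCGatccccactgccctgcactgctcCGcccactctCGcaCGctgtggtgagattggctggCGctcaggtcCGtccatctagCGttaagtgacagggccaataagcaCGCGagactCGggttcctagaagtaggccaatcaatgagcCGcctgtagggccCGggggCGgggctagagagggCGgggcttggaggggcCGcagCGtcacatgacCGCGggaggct
The 5 highest hold 7, 4, 1, 1 and 2 CG dinucleotides in the order printed, and the 3 lowest hold 14, 15 and 20. Over all 27305 RefSeq promoters the same 250 bases held a median of 11, and 51.9% held 10 or more. POTED, a member of the POTE ankyrin family (chr21:13609527-13609776, plus strand), stands apart from this contrast. It was picked after its values were seen, as the single enriched member among the 99 tested members tied to RefSeq with 15 or more CG dinucleotides, of which it holds 32. It passed the filter on low counts through H3K9me3 libraries alone and so had to look marked.
POTED: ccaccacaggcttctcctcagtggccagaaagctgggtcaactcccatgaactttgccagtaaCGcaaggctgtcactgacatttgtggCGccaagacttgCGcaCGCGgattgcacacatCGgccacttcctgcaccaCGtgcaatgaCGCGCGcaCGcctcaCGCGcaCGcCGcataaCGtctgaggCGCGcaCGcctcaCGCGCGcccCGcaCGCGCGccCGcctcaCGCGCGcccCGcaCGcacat
The highest and lowest genes were picked by H3K9me3 over input, so the contrast in the reads of their windows follows from that choice. SUN5 (chr20:31592139-31594239) held 27 H3K9me3 against 20 input reads (non-migrated) and 17 against 41 (migrated) in set 1, and 194 against 100 and 172 against 91 in set 2 (log2 1.52). The IFT20 window held 0 against 13 and 17, and 1 against 102 and 0 against 72 (log2 -4.52, a size that depends on the 0.5 added to each count), and overlaps another window of that gene. Only 171 of the 907 tested members (18.9%) could be tied to a RefSeq start within 500 bases, so a comparison of CG content over the whole set is void, and the counts describe these promoters alone. Of the 99 with 15 or more CG dinucleotides 1 was enriched and 70 were lower, against 285 and 2518 of 4494 other tested windows with as many. Of the 40 with 0 to 4 these numbers were 6 and 7, against 126 and 186 of 1365 others.

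Many of the windows could not be read. No input library held a read in 141 of the 1240 (11.4%), against 1.77% of all other promoter windows, and 907 (73.1%) passed the filter on low counts, against 96.3% of the others. Chromosome 9 was the extreme, since 60 of its 140 windows held no input read and 27 could be tested. On chromosomes 5, 20 and 21 all windows but 3 were tested. Of the tested windows, 36 passed the filter through H3K9me3 libraries alone and therefore had to look marked, and 25 of these were called enriched. The sources used here do not say how reads that match several places were treated, and its part in these gaps was not tested.

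**Figure D1:**
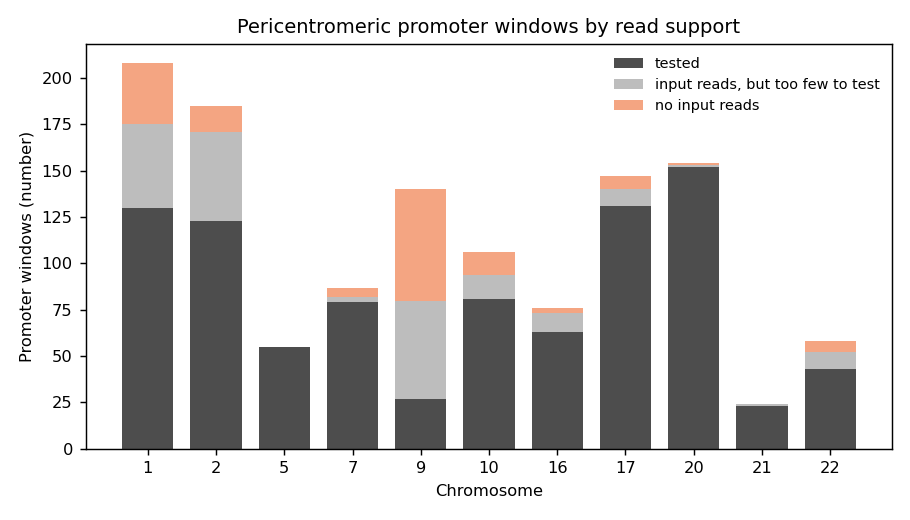
Number of pericentromeric promoter windows on each chromosome, split into windows that were tested, windows with input reads but too few to test, and windows without a read in any input library. Chromosome 9 stands apart, with 60 of 140 windows lacking input reads, while the bars of chromosomes 5, 20 and 21 are almost wholly made of tested windows.

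Pooled as 1 region, the windows drew more reads with the antibody than without it. In the non-migrated cells they took 3.28% of all promoter reads of the H3K9me3 library and 2.76% of those of the input in set 1, and 3.44% and 2.87% in set 2. In the migrated cells the shares were 3.45% and 2.74% in set 1, and 3.60% and 2.81% in set 2. Every H3K9me3 library lay above every input, at 3.44% ± 0.132 (SD, n = 4) against 2.79% ± 0.0585 (SD, n = 4), with an exact two-sided permutation p of 0.0286, the smallest that 4 against 4 libraries can give. The permutation moved labels freely, without keeping pairs or sets together. It takes the 4 libraries of a kind as independent, although they come from 2 sets, so this p may overstate the evidence. As a ratio of these shares the pooled windows held 1.19 to 1.28 times as much H3K9me3 as input in the 4 pairs of an H3K9me3 library and its own input.

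Window by window, 188 of the 907 tested members were enriched for H3K9me3 over input (20.7%, against 11.9% of all 36440 tested promoter windows) and 255 were lower (28.1%, against 31.3%), at an adjusted p of 0.05 in limma. Values per window are log2 ratios averaged over both fractions and sets, set to 0 at the centre that scaling by trimmed means of M values (TMM) gives. The median member lay at -0.17 and the median of all other windows at -0.35. Of the enriched members 174 were above 0 in all 4 pairs, and of the lower members 228 were below 0 in all 4. Among windows with at least 20 input reads in set 2, 174 of 888 members (19.6%) were enriched. The centre sets the split between enriched and lower: with the constants of the deposited values in place of TMM the median of all windows moved to -1.30, and 29 members (3.20%, against 0.730% of all windows) were enriched and 426 lower. Without the migrated input of set 1, or without the non-migrated input of set 2, 105 members were enriched, and 169 and 165 were lower. Without the migrated input of set 2, 128 were lower.

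The mark differed between chromosomes. On chromosome 7, 29 of 79 tested windows were enriched and the median window lay at log2 0.54. On chromosome 9 these values were 14 of 27 and 1.23, on chromosome 21 they were 9 of 23 and 0.79, and on chromosome 10 they were 18 of 81 and 0.43. The tested windows of chromosomes 9, 21 and 10 include some that passed the filter through H3K9me3 libraries alone and so had to look marked. Among these were FAM75A6 and FAM27E2 on chromosome 9 and BAGE4 and POTED on chromosome 21. Such windows also lay on chromosomes 1, 2, 16, 17 and 22. Chromosomes 1, 20 and 16 had similar enriched shares (32 of 130, 32 of 152 and 15 of 63) but medians of -0.01, -0.23 and -0.33. Chromosome 5 (9 of 55), chromosome 22 (6 of 43) and chromosome 2 (17 of 123) were nearer to the level of all promoters. Chromosome 17 was the lowest, with 7 enriched and 63 lower of 131 and a median of -0.99.

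The shares of promoter reads gave a test over libraries for each chromosome, adjusted over the 11. The chromosome 7 windows took 0.445% (non-migrated) and 0.509% (migrated) of the H3K9me3 reads in set 1 and 0.423% and 0.494% in set 2, against 0.222% to 0.240% in the 4 inputs. The groups did not overlap here, nor on chromosomes 1, 9, 10, 16 and 21, where H3K9me3 was likewise higher, nor on chromosome 17, where it was lower (0.304% ± 0.0228 against 0.425% ± 0.0304, SD, n = 4 each). Each of these 7 chromosomes had an exact permutation p of 0.0286, adjusted p = 0.0449. This test too kept neither pairs nor sets together, so its p may overstate the evidence. Chromosomes 2, 5, 20 and 22 overlapped between H3K9me3 and input, with adjusted p of 0.723, 0.829, 0.157 and 0.559 in the same exact test.

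In pooled reads chromosomes 16, 9 and 7 stood well above the rest of their own chromosome. On chromosome 16 the pericentromeric windows held 1.71 to 2.27 times as much H3K9me3 as input in the 4 pairs, and the other 1074 windows of the chromosome 0.689 to 0.806 times. For chromosome 7 these ranges were 1.85 to 2.22 and 0.972 to 1.04, and for chromosome 9 they were 1.96 to 2.33 and 0.802 to 0.869. The pericentromeric range also lay above on chromosomes 21 (1.37 to 2.22 and 1.05 to 1.16) and 10 (1.38 to 1.52 and 0.996 to 1.03). The same held for chromosomes 1 (1.15 to 1.32 and 0.826 to 0.880), 20 (1.07 to 1.21 and 0.875 to 0.935) and 22 (0.869 to 1.02 and 0.736 to 0.834). On chromosome 16 a few windows held many of the reads. Of 4254 H3K9me3 reads of migrated cells in set 2, 838 lay in 1 LINC00273 window and 832 in a 5S ribosomal RNA window. Its median tested window lay at log2 -0.33, with 15 enriched and 16 lower of 63. On chromosome 17 the range near the centromere (0.622 to 0.785) lay at the level of the other windows of that chromosome (0.661 to 0.766). On chromosome 5 the 4 ratios (0.935 to 1.14) each lay below that of the rest of the chromosome in the same pair (1.13 to 1.24), and on chromosome 2 the ranges overlapped. The difference from the rest of a chromosome was not tested.

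Arms of 1 chromosome could differ as much as chromosomes did. On chromosome 10, 13 of 25 tested windows of the short arm (10p) were enriched and 5 of 56 of the long arm (10q). Of the tested windows of 10p, RP11-20F24.2, RP11-291L22.3 and RP11-453N3.2 passed the filter through H3K9me3 libraries alone. On chromosome 20 the counts were 22 of 61 on 20p and 10 of 91 on 20q, where 38 were lower. On chromosome 16 they were 12 of 36 on 16p and 3 of 27 on 16q. The 82 windows of 17q held no enriched member and 46 lower ones, while all 7 enriched windows of chromosome 17 lay on 17p. Chromosome 7 was marked on both sides, with 15 of 46 on 7p and 14 of 33 on 7q. The difference between arms was not tested.

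**Figure D2:**
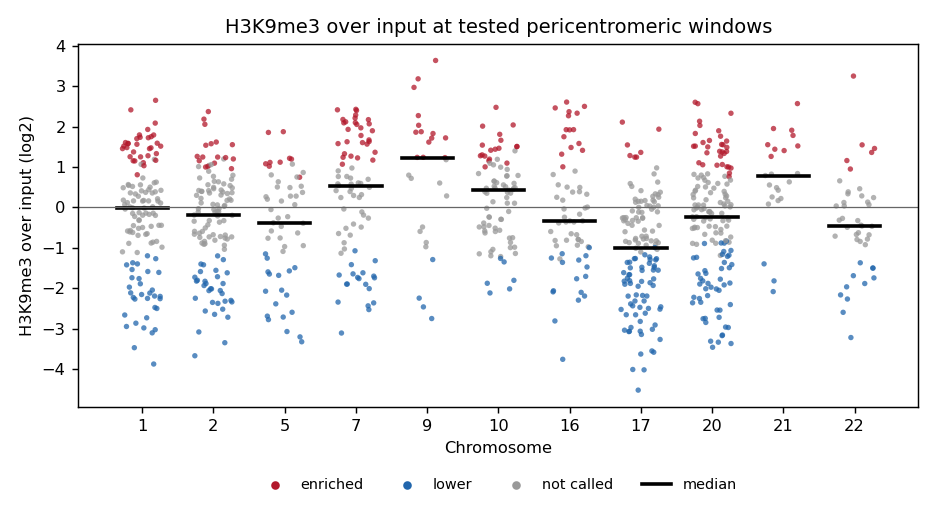
H3K9me3 over input (log2, averaged over sets and fractions) of each tested pericentromeric window, by chromosome; points are windows, colours give the call and black bars the median. The medians run from -0.99 on chromosome 17 to 1.23 on chromosome 9, and windows of both calls occur on every chromosome. Some windows, as on chromosomes 9 and 21, were tested through H3K9me3 reads alone.

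Distance from the centromere was measured from the longest stretch without any listed window within each range, because no hg19 genome was used here; on chromosome 22, whose range starts beyond the centromere, it was measured from the first listed window. The enriched share fell with distance over the first 5 Mb. Within 0.5 Mb 55 of 107 tested windows were enriched (51.4%) and 10 were lower, with a median log2 of 1.05; with the deposited constants 10 were enriched and 22 lower (median 0.10, against -1.30 for all windows). Of the 107, 9 passed the filter through H3K9me3 libraries alone, 8 of them enriched. From 0.5 to 1 Mb these were 30 and 26 of 108 (27.8% enriched, median 0.18), and from 1 to 2 Mb 46 and 85 of 238 (19.3%, median -0.31). From 2 to 3 Mb 31 of 255 were enriched (12.2%) and from 3 to 5 Mb 17 of 174 (9.77%), with a median of -0.44 in both, close to that of all promoters. The 25 tested windows beyond 5 Mb, all of them on chromosomes 1 and 9, broke the order with 9 enriched and a median of 0.44. Of the 86 windows in that bin 31 held no input read.

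Pooled reads were highest in the nearest bin in each pair of libraries. Within 0.5 Mb the windows held 2.33 (non-migrated) and 2.61 (migrated) times as much H3K9me3 as input in set 1, and 2.46 and 3.11 times in set 2. From 0.5 to 1 Mb the 4 ratios lay between 1.22 and 1.33, from 1 to 2 Mb between 1.09 and 1.33, from 2 to 3 Mb between 0.861 and 0.924, and from 3 to 5 Mb between 0.893 and 0.952, so that neighbouring bins overlapped. In migrated cells of set 1 the bin from 1 to 2 Mb (1.33) lay above that from 0.5 to 1 Mb (1.22). No pair's ratio from the nearest bin overlapped with any ratio of the other bins. The log2 of reads within 2 Mb over reads farther away was 0.63 and 0.81 in the H3K9me3 libraries of non-migrated and migrated cells in set 1 and 0.63 and 0.83 in set 2, against -0.01 to 0.05 in the inputs. The difference was 0.71 (exact two-sided permutation that kept neither pairs nor sets together, p = 0.0286, the smallest possible, n = 4 against 4). It was 0.91 with a limit of 1 Mb and turned to -0.51 with a limit of 5 Mb, where the sparse outermost bin makes up the far side.

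**Figure D3:**
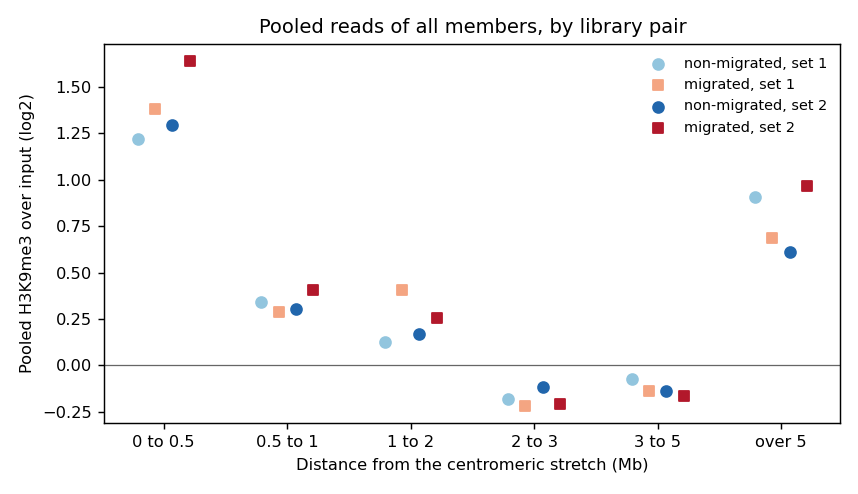
Pooled H3K9me3 over input (log2 of the ratio of shares of promoter reads) of all pericentromeric windows in 6 bins of distance, with 1 point for each fraction and replicate set. The 4 points within 0.5 Mb lie at 1.22 to 1.64, those from 2 to 5 Mb lie below 0, and those beyond 5 Mb rise again to 0.61 to 0.97.

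In pooled reads the fall with distance was seen on most chromosomes. The pooled ratio within 2 Mb exceeded that beyond it in all 4 pairs on 9 of the 10 chromosomes that hold windows on both sides of the limit, and in 3 of 4 pairs on chromosome 17. On chromosome 5 it was 1.40 to 2.10 within 2 Mb and 0.512 to 0.588 beyond it, and on chromosome 7 2.35 to 3.30 and 0.841 to 1.07. On chromosome 7 all 14 tested windows within 0.5 Mb were enriched, with a median of log2 1.95, against 3 of 35 beyond 2 Mb. On chromosome 16 the median window went the other way, at log2 -0.67 within 0.5 Mb (12 tested) and -0.20 beyond 2 Mb (32 tested). Leaving out any 1 chromosome gave an enriched share of 44.1% to 56.5% in the nearest bin. The 13 left-out zinc finger windows of chromosome 7 and the 18 of chromosome 10 have neighbours among the members, but 33 of 67 tested windows within 0.5 Mb of the stretch that had no zinc finger window within 0.5 Mb were enriched, against 22 of 40 that had one.

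Short and long arms had different counts next to the centromere, a difference that was not tested. Within 0.5 Mb 34 of 47 tested windows of short arms were enriched and 2 lower (median log2 1.57), and 21 of 60 windows of long arms were enriched and 8 lower (median 0.46). From 1 to 2 Mb the counts were 31 enriched and 20 lower of 95 on short arms, and 15 enriched and 65 lower of 143 on long arms. The mix of genes differed with distance as well. Windows of protein-coding genes made up 27 of the 107 tested windows within 0.5 Mb and 231 of the 454 beyond 2 Mb. Among these alone 7 of 27 were enriched in the nearest bin and 14 of 231 beyond 2 Mb, and among windows whose name matched no RefSeq gene 44 of 72 and 38 of 195.

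**Figure D4:**
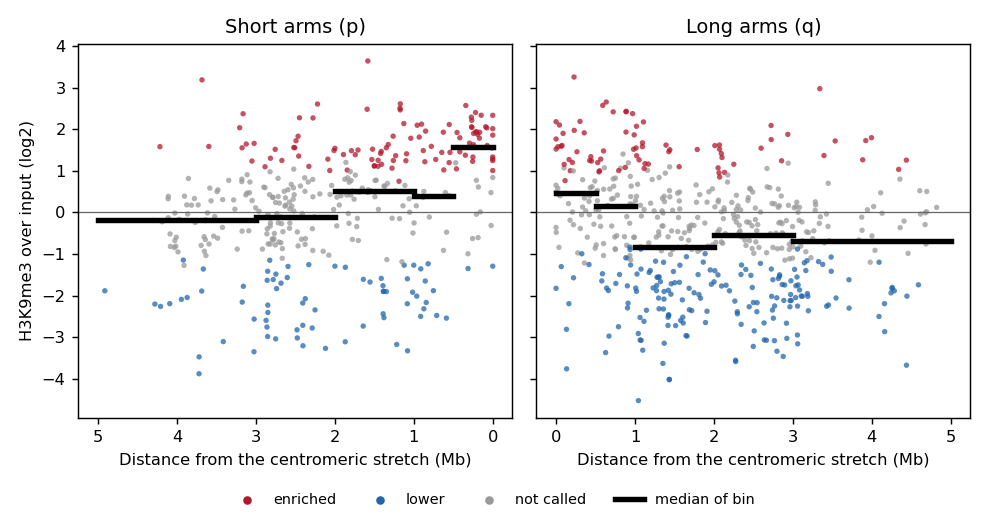
H3K9me3 over input (log2) of tested windows up to 5 Mb against their distance from the centromeric stretch, with short arms on the left and long arms on the right; colours give the call and black bars the median of each bin. On short arms the median rises to 1.57 within 0.5 Mb, while on long arms it is 0.46 there and below 0 beyond 1 Mb.

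The tested window nearest to the centromeric stretch was enriched on 14 of the 21 arms that have one and lower on 2. Of the 14, FAM27E2 on 9p, which lies 1.58 Mb away, RP11-453N3.2 on 10p and POTEH on 22q were tested through their H3K9me3 reads alone. On 20p it was RP3-410C9.1 (chr20:26188814-26191869), a transcript known by its clone. Its H3K9me3 and input reads were 108 and 37 (non-migrated) and 82 and 109 (migrated) in set 1, and 1142 and 459, and 1615 and 399, in set 2. All 4 pairs were high once library size was taken into account, with a ratio of 5.03 (log2 2.33 ± 0.17, SE, adjusted p = 3.02e-12 by limma). On 7q the nearest window was a copy of the U6 spliceosomal RNA gene (chr7:62471847-62473947; 183 against 48 and 188 against 62 reads in set 2, log2 2.18 ± 0.31). On 5p it was CTD-2013M15.1 (217 against 88 and 238 against 86, log2 1.86 ± 0.24), and on 17p AC131055.13, a window wider than 2100 bases (354 against 205 and 364 against 212, log2 1.29 ± 0.16).

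Other nearest windows did not follow. WSB1, a substrate receptor of a ubiquitin ligase, is the first tested window of 17q (chr17:25619106-25621206). It held 2 H3K9me3 against 14 input reads and 0 against 24 in set 1, and 18 against 60 and 10 against 56 in set 2, and was lower in all 4 pairs (log2 -1.82 ± 0.46, adjusted p = 0.0016 by limma). AC027612.1 on 2p was also lower (log2 -1.29, adjusted p = 0.0481). EMB on 5q, which encodes the adhesion protein embigin (log2 0.49, adjusted p = 0.423), CCNYL2 on 10q, a cyclin pseudogene (0.65, adjusted p = 0.278), the U6 copy of 16q (-0.36, adjusted p = 0.537), TPTE on 21p, a testis phosphatase homologue (0.84, adjusted p = 0.102), and AL583842.2 on 1q (-0.84, adjusted p = 0.17) passed in neither direction in limma.

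Enriched windows lay next to each other in places. In 12 stretches at least 4 tested members in a row were enriched. Untested windows between them were passed over, and the left-out zinc finger windows are not members and were not counted. Windows of 1 name count separately. The longest counted 15 windows of 11 names over 1111 kb of 7p (chr7:56183993-57294808), with a median log2 of 1.90. On 7q 13 windows of 10 names over 2055 kb (chr7:62471847-64526477) had a median of 1.97. The stretch without windows of chromosome 7 was thus flanked by marked windows on both sides. Next came 7 windows over 2103 kb of 9p (2.03). Of these, the FAM75A6, FAM27E2, U6 and Y_RNA windows passed the filter through H3K9me3 libraries alone and so had to look marked. On 16p 2 stretches of 6 and 5 windows had medians of 2.42 and 1.93. On 21p all 5 enriched windows formed 1 stretch (1.55). Of these, CR392039.2 and CR381653.1 also passed through H3K9me3 libraries alone, as did IGHV2OR16-5 in the stretch of 6 windows on 16p.

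The 12 highest windows among members with a mean of at least 20 reads per library and the same sign in both sets were mostly noncoding. RN5-8S2, a copy of the 5.8S ribosomal RNA gene on 16p (chr16:33963426-33965526), held 35 reads with the antibody against 12 without it (non-migrated) and 35 against 25 (migrated) in set 1, and 385 against 114 and 361 against 108 in set 2. It was high in each pair, at 6.10 times input (log2 2.61 ± 0.26, adjusted p = 2.68e-08 by limma). The minus-strand window of LINC00273, a long noncoding RNA, overlaps it and shares part of its reads (chr16:33962403-33964503; 753 against 236 and 838 against 196 in set 2, log2 2.46 ± 0.14, adjusted p = 6.17e-15). A wide window of 5S ribosomal RNA copies on the same arm (chr16:34978360-34989648) held 829 against 263 and 832 against 254 reads in set 2, which gave log2 2.33 ± 0.19 (adjusted p = 1.02e-10). Copies of ribosomal RNA genes are nearly alike across the genome, so that reads of these windows may come from other copies, and that part was not tested.

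Named genes were few at the top. GGTLC1, whose promoter opens the sequences above, held 7 against 3 and 6 against 1 reads in set 1 and 69 against 45 and 74 against 25 in set 2 (chr20:23969316-23971416, log2 2.60 ± 0.49, adjusted p = 7.21e-05). Its ratio rests in part on few input reads in set 1, since the set 2 pairs were at log2 1.09 (non-migrated) and 2.31 (migrated). ANKRD30A, a breast differentiation antigen with ankyrin repeats on 10p, held 84 against 31 and 104 against 33 in set 2 (log2 2.48 ± 0.44). FAM182B, a noncoding gene of 20p, held 192 against 54 and 182 against 52 (2.57 ± 0.33), but its window does not lie at the gene's RefSeq start. BX571672.2, also among the 12, passed the filter through H3K9me3 libraries alone. The rest were a second window of LINC00273 (2.50), RP11-340I6.7 (2.42), RP11-1217F2.15 (2.40) and LINC00342 (2.37), with adjusted p between 7.04e-07 and 0.000157 in limma.

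The 12 lowest windows held 0 to 16 H3K9me3 reads per library. TLCD1 (chr17:27053850-27055950) held 0 H3K9me3 against 15 and 25 input reads in set 1, and 3 against 95 and 1 against 83 in set 2. VPS35 (chr16:46723004-46725104), which lies 0.133 Mb from the stretch on 16q, held 0 against 13 and 20, and 3 against 102 and 2 against 87. Both were lower in every pair, with fitted log2 of -4.02 ± 0.48 and -3.76 ± 0.48 (adjusted p = 4.19e-07 and 7.3e-07 by limma); with so few H3K9me3 reads these sizes depend on the 0.5 added to each count. HM13, the signal peptide peptidase, held 11 against 119 and 9 against 93 reads in set 2 (log2 -3.37). MAN1A2, a mannosidase of the Golgi, was at -3.10. The window under the name of EIF2AK3 (-3.34), the PERK kinase, lies on the strand opposite to that gene. So does that of TXNDC9 (-3.67), which is not among the 12 because its mean was 19.6 reads per library. Within 0.5 Mb of the stretch the 10 lower windows were 2 of VPS35 and 1 each of SHCBP1, GPT2, DNAJA2, WSB1, KSR1, PARP8, SEPT7L and AC027612.1, named here after their values were seen, and 5 of the 10 lie on 16q.

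The lists of genes differed in the same way. Of 60 windows of housekeeping genes 39 were lower (65.0%) and 1 was enriched, with a median log2 of -1.67, against -0.35 for all tested windows. Among all protein-coding members 188 of 418 were lower (45.0%), with a median of -0.84. Besides VPS35, HM13 and TXNDC9, the ACTR1B window, on the strand opposite to that dynactin gene, was also lower (6 against 55 and 2 against 61 reads in set 2, log2 -3.08 ± 0.49). The exception, a window under the name of MRPS5 (log2 2.19, adjusted p = 1.27e-05), does not lie at that gene's RefSeq start and was picked out after its values were seen. Receptors, ligands and developmental factors were split, with 8 enriched and 12 lower of 47 (median -0.22). CBLN1, a secreted organiser of cerebellar synapses, lies on 16q (chr16:49315642-49317742) and was picked out after its values were seen. It held 8 H3K9me3 against 7 input reads (non-migrated) and 9 against 23 (migrated) in set 1, and 84 against 34 and 136 against 35 in set 2 (log2 1.75 ± 0.39, adjusted p = 4.73e-04 by limma). ID1, an inhibitor of basic helix-loop-helix factors (-2.97 ± 0.48), BCL2L1, which blocks apoptosis (-2.74 ± 0.44), and CD58, a ligand of CD2 on lymphocytes (-2.26 ± 0.49), were lower.

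Duplicated families could be read only in part. Of 33 windows of the SPATA31, FOXD4, CBWD, CNTNAP3 and FAM27 families, 20 held no input read and 3 were tested. All 3 were enriched: FAM75A6 (15 against 0 and 18 against 4 reads in set 2), FAM27E2 (14 against 7 and 15 against 0), and FAM27L, which lies on chromosome 17 (58 against 20 and 47 against 17). All 3 passed the filter through H3K9me3 libraries alone and so had to look marked, and their fitted sizes are not given. The same holds for POTEH, POTED, NOTCH2NL and BAGE4 among the families that follow. Of 19 POTE and ANKRD windows 7 were tested and 4 were enriched, among them POTEH (41 against 13 and 43 against 4 in set 2) and POTED (33 against 18 and 37 against 6), while ANKRD36 was lower (2 against 46 and 1 against 47, log2 -2.13). In the NBPF neighbourhood of 1q21 1 of 7 tested windows was enriched (14.3%, near the 11.9% of all windows). It was that of NOTCH2NL, a duplicated fragment of NOTCH2 (47 against 14 and 44 against 11 in set 2). The TPTE and BAGE list held 3 enriched of 6, BAGE4, CCT8L2 and GAB4, and 1 lower, LIPI. Copies in these families are nearly identical, so reads may be split among them.

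Among tissue-restricted clusters the cystatins and the beta-defensins of chromosome 20 had different counts. Of 23 windows in their list 7 were enriched (30.4%, against 11.9% of all windows) and 1 was lower (4.35%, against 31.3%), with a median of 0.51. Cystatin windows, of secreted protease inhibitors, made up 5 enriched and 1 lower of 12 (median 0.83), and windows of beta-defensins, antimicrobial peptides, 1 enriched of 10 (median 0.06). The other enriched window was that of FRG1B, which belongs to neither family. CST7, expressed in leukocytes, held 72 against 25 and 80 against 34 reads in set 2 (log2 1.83 ± 0.39), and the salivary CST4 64 against 34 and 50 against 37 (1.56 ± 0.44). Immunoglobulin kappa segments, which are joined into antibody genes in B cells, were enriched at 4 of 30 tested windows, near the 11.9% of all windows, and lower at none, and 45 of their 75 windows could not be tested. The enriched windows of IGKV3-7 and IGKV1D-33 passed the filter through H3K9me3 libraries alone. IGKV1D-33 lay below 0 in both pairs of set 2 (2 against 8 and 3 against 6 reads). Its call rests on 3 against 1 and 2 against 0 reads in set 1. IGKV3-20 held input reads enough to pass (33 against 26 and 23 against 19 in set 2, log2 1.55, adjusted p = 0.00557 by limma). Small RNA genes were enriched at 19 (30.2%) and lower at 5 (7.94%) of 63 tested windows, with a median of 0.39. Transcripts known by clone name or LINC number were enriched at 96 (35.4%) and lower at 37 (13.7%) of 271 (median 0.53). With the deposited constants as the scale all list medians fell by about as much as the median of all windows, and those of the cystatins (-0.42), kappa segments (-0.56), small RNAs (-0.56), clone-named transcripts (-0.40) and NBPF neighbours (-0.72) lay below 0, while all 5 stayed above that median of -1.30.

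**Figure D5:**
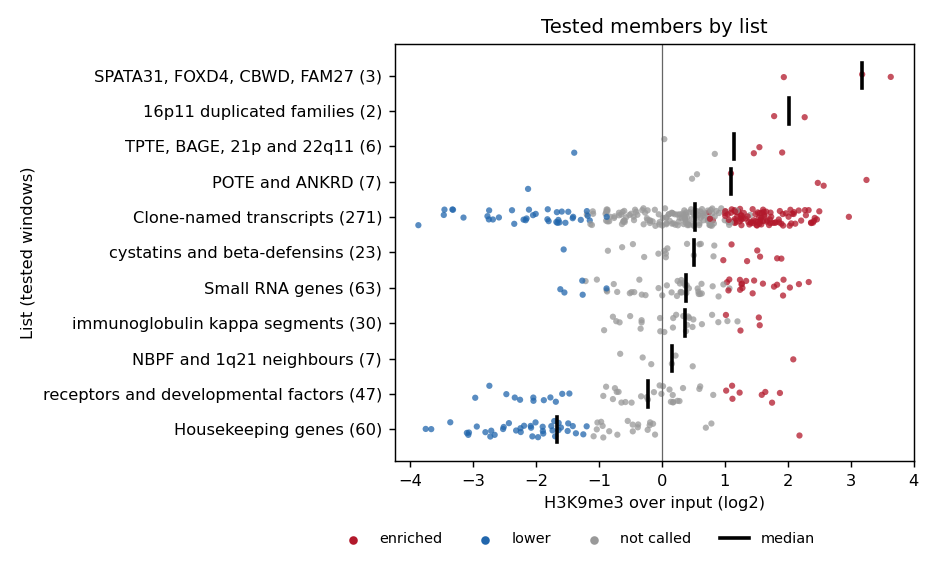
H3K9me3 over input (log2) of tested members by list, with the number of tested windows in brackets; points are windows, colours give the call and black bars the median. Housekeeping genes lie lowest, with a median of -1.67 and 1 enriched window, and the list that holds the FAM27 family lies highest, with 3 tested windows.

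Between the fractions no member changed past the threshold. After correction for input, 0 of the 907 tested members and 0 of all 36440 windows (0%) differed between migrated and non-migrated cells at an adjusted p of 0.05 in limma, and 0 members passed in the quasi-Poisson model run beside it. At an unadjusted p of 0.05, 47 members passed (5.18%, against 3.52% of all windows), of which 29 were higher (3.20%, against 1.67%) and 18 lower (1.98%, against 1.85%) in migrated cells. Single libraries decided this count. Without the non-migrated H3K9me3 library of set 2, 4 members were higher in migrated cells and 1 was lower, without either input of set 1 1 was higher, and 3 were lower when the H3K9me3 library of migrated cells in set 1 was left out. Over all 36440 windows 184, 1, 1 and 97 were called in these 4 settings, so that the first is at the share of all windows.

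The pooled windows moved little and in the same direction in both sets. Their ratio of H3K9me3 to input was higher in migrated cells by log2 0.08 in set 1 and 0.10 in set 2. Within 0.5 Mb of the stretch the differences were 0.16 and 0.34, and without the windows of RP3-410C9.1 0.15 and 0.26. On 17q, whose windows were low, the difference went the other way, at -0.27 and -0.38, and for housekeeping genes it was -0.35 and -0.16. Such values of 2 against 2 pairs cannot reach an exact permutation p below 0.333 and were not tested. Whether the immunoprecipitations differed in strength between the fractions was not tested.

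The smallest p among all members in limma was that of RP3-410C9.1 (log2 change 0.81 ± 0.18, adjusted p = 0.999), but its sets disagreed: migrated minus non-migrated was below 0 in set 1 and above 0 in set 2. It passed when 2 in place of 0.5 was added to each count. Among members with the same sign in both sets, the minus-strand LINC00273 window (log2 change 0.72 ± 0.20), AC099654.8 on 7p (1.03 ± 0.36) and RP11-272J7.4 on 10q (1.71 ± 0.60) had the smallest p of those higher in migrated cells. With the deposited constants the changes of LINC00273 (-0.22) and AC099654.8 (-0.14) turned direction. RP11-159F24.1 on 5p (-2.53 ± 0.79), C1orf137 on 1p (-1.77 ± 0.65) and TGFB1I1, a focal adhesion adaptor on 16p (-1.68 ± 0.69), had the smallest p of those lower. The adjusted p of each was 0.999 in limma. TGFB1I1 held 4 H3K9me3 against 9 input reads (non-migrated) and 0 against 17 (migrated) in set 1, and 26 against 38 and 13 against 62 in set 2, so that even the deeper set rests on few reads.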

How the data were processed

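H3K9me3 and input chromatin of migrated and non-migrated SiHa cells had been sequenced in 2 replicate sets. The deposited tables give log2 values per promoter window, per the file headers. Tools listed in the submitters' processing notes are Bowtie2 2.2.9, SAMtools 1.3 and FastQC 0.11.5, with the build hg19. Every deposited log2 value was the log2 of a whole number of reads plus a constant per library, within 0.01, with 0 reads entered as 0.9 reads, so whole reads were recovered. Because the unit is log2, the planned count test was replaced by limma 3.58.1 with voom in R 4.3.3, with TMM factors computed here (30% and 5% trimmed) and 0.5 added to each count. The model held the set, antibody, fraction and their interactions with the antibody, and left 2 residual degrees of freedom. A filter on low counts left 36440 windows, over all of which p-values were adjusted (Benjamini-Hochberg, 0.05). The scripts were tested on simulated data.

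Shares of promoter reads were compared by exact two-sided permutation over libraries, without keeping pairs or sets together. Intervals of distance start at the longest stretch without a listed window, since no genome was used here. The members, lists and tests were chosen with earlier results of these data known. Named windows are the 12 highest and 12 lowest with a mean of at least 20 reads per library and 1 sign in both sets (overlapping windows of 1 gene count once, by the one of most reads, which leaves out the lowest IFT20 window), the 3 of smallest p for change in each direction, the nearest tested window of each arm, and list members, of which 1 gene is not reported here. Names were matched to RefSeq for 590 members, and 174 lie within 500 bases of a RefSeq start after a local shift between builds. Sets are separate biological replicates per the labels' protocols, and same-numbered libraries deviated together (r = 0.147 for H3K9me3 and 0.469 for input), so the set was kept as a block. Title and description disagree on the replicate number of 1 library, and the title was followed. Depth limits set 1, and a window's median read count was 1 to 40 over the libraries. Python 3.11.15, SciPy 1.17.1, pandas 2.3.3 and NumPy 2.4.6 were used.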

Additional observations from a re-analysis of the deposited data

How the results depend on the processing

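The scale decided how many members were called: with the deposited constants 29 were enriched and 426 lower, and without a filter beyond a total above 0 298 were enriched. Leaving out single libraries gave 105 to 263 enriched and 128 to 277 lower. For the change between fractions it gave 0 to 4 members higher and 0 to 3 lower in migrated cells, and adding 2 to each count gave 1 higher. The share difference was 0.596 to 0.703 points and the near to far log2 difference 0.670 to 0.737 without single libraries, where 3 against 4 libraries cannot go below an exact permutation p of 0.0571. With a limit of 5 Mb the latter was -0.506. Without the replicate block 212 members were enriched, 288 were lower and 0 changed between fractions.

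With the deposited constants the sign turned for the change of LINC00273 (-0.22) and AC099654.8 (-0.14), and for the level of EMB (-0.44), CCNYL2 (-0.34), TPTE (-0.19) and a PDE4DIP window (-0.48). Leaving out single libraries moved AL583842.2 between -1.52 and 0.10 and the U6 window of 16q between -0.55 and 0.0265. Another PDE4DIP window was at 0.0027 with 2 added, 0.13 without the replicate block, and between -0.457 and 0.0507 without single libraries. The cause was not tested. Of the other values of single windows 1151 kept their direction and call, 22 passed newly and 102 no longer passed. The planned negative binomial alternative was not run, since the deposited unit is log2.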
